A study of Homo sapiens with 6 samples.

Results

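The genes described here are 10 sensors of double-stranded RNA and their adaptors (*TLR3*, *DDX58*, *IFIH1*, *DHX58*, *MAVS*, *TICAM1*, *EIF2AK2*, *ADAR*, *ZC3HAV1* and *IRF3*), taken by symbol from the 26485 gene names of the count table. They were chosen by function, but with the knockdown against control values of these same cultures already known, so these values are given as a description and are not independent evidence. RNA-seq was performed on HEK293 cells, an established line from human embryonic kidney. The knockdown group was 3 cultures transiently transfected with a Smart Silencer against the long noncoding RNA *HSALNG0134318*, a reagent that combines antisense oligonucleotides with siRNAs against the same transcript and was delivered with a lipid. The control group was 3 cultures that the labels call NC and, for genotype, WT. The text of the paper does not say what the controls received. Replicates are numbered as in the sample titles. The count columns carry other numbers, KD-1, KD-4 and KD-5 for knockdown replicates 1, 2 and 3. Control replicates 1, 2 and 3 are columns NC-10, NC-11 and NC-1. What the column numbers stand for is not stated in the sources used here. Each sample is called a culture below. The paper states that the knockdown experiments of each group were biologically independent. That statement does not name the RNA-seq samples or say how they were grown. The p-values measure the spread between these samples.

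RNA that pairs with itself over a long stretch is rare in a healthy cytosol and common in viral infection, and cells carry several proteins that bind it. TLR3 reads double-stranded RNA inside endosomes and signals through the adaptor TICAM1 (TRIF). In the cytosol, the helicases RIG-I (the protein of *DDX58*) and MDA5 (*IFIH1*) signal through MAVS on the mitochondrial surface, and LGP2 (*DHX58*) tunes them. Both branches lead to phosphorylation of the transcription factor IRF3 and to type I interferon, which in turn induces many of the sensors themselves. PKR (*EIF2AK2*) stops translation when it binds double-stranded RNA, ADAR edits adenosine to inosine in it, and ZAP (*ZC3HAV1*) binds CpG-rich RNA and recruits decay factors.

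Counts per culture totalled between 13900965 and 16869948. *HSALNG0134318* is not listed in the table, and its level therefore gives no check of the labels. Of 9 markers of HEK293 and kidney epithelium, 8 had a mean of at least 100 normalized counts. The 7 blood and immune markers summed to between 96.0 and 129 normalized counts in the knockdown group and between 91.8 and 110 in the control group, with *CD3E* and *HBB* at 0 in every culture. The 6 markers of other cells summed to between 651 and 886 in the knockdown group and between 624 and 787 in the control group. The highest of these was *COL1A1*, with a mean of 650 over the cultures. Control replicate 2 stood apart from the other controls. Its root mean square difference per gene, on a log2 scale of library-scaled counts, was 0.445 from control replicate 1 and 0.485 from control replicate 3, whereas knockdown cultures were between 0.271 and 0.315 apart. Control replicate 3 was 0.369 from control replicate 1 and between 0.397 and 0.413 from the knockdown cultures. Distances to the knockdown cultures were 0.467 to 0.497 for control replicate 1 and 0.527 to 0.545 for control replicate 2. Distances among controls thus overlapped those between the groups. Normalized counts here are reads scaled by the TMM effective library size of each culture to the mean size, and they compare cultures but not genes of different length.

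Of the 10 genes, 9 passed the filter on low counts, and *DHX58* did not. *TLR3* was lower in every knockdown culture, at 0.29 times its control level, and *ZC3HAV1* was lower by a smaller amount (0.77 times). These were the 2 members with adjusted p under 0.05 in edgeR's quasi-likelihood test on all 14877 genes tested, where 4.64% of genes were called lower and 5.40% higher. No member was called higher, and the adjusted p of each member below describes its place in that fit and is not a test of how the members were chosen. Over the 9 genes, 8 log2 fold changes were negative and 1 was positive, with a median of -0.24 against -0.02 over all genes tested, of which 52.7% were negative. This lean was not particular to the members. Among the lists described below, the other innate sensors and adaptors had the same median, -0.24, with 9 of 12 negative. The other interferon regulatory factors had -0.32, with 8 of 11 negative, and the interferon-stimulated genes had -0.59. In 4 members (*TLR3*, *IFIH1*, *MAVS* and *ZC3HAV1*) all knockdown cultures lay below all control cultures, as they did in 15.8% of the genes tested. In bulk RNA-seq, fewer cells with a transcript and less transcript per cell cannot be told apart.

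**Figure D1:**
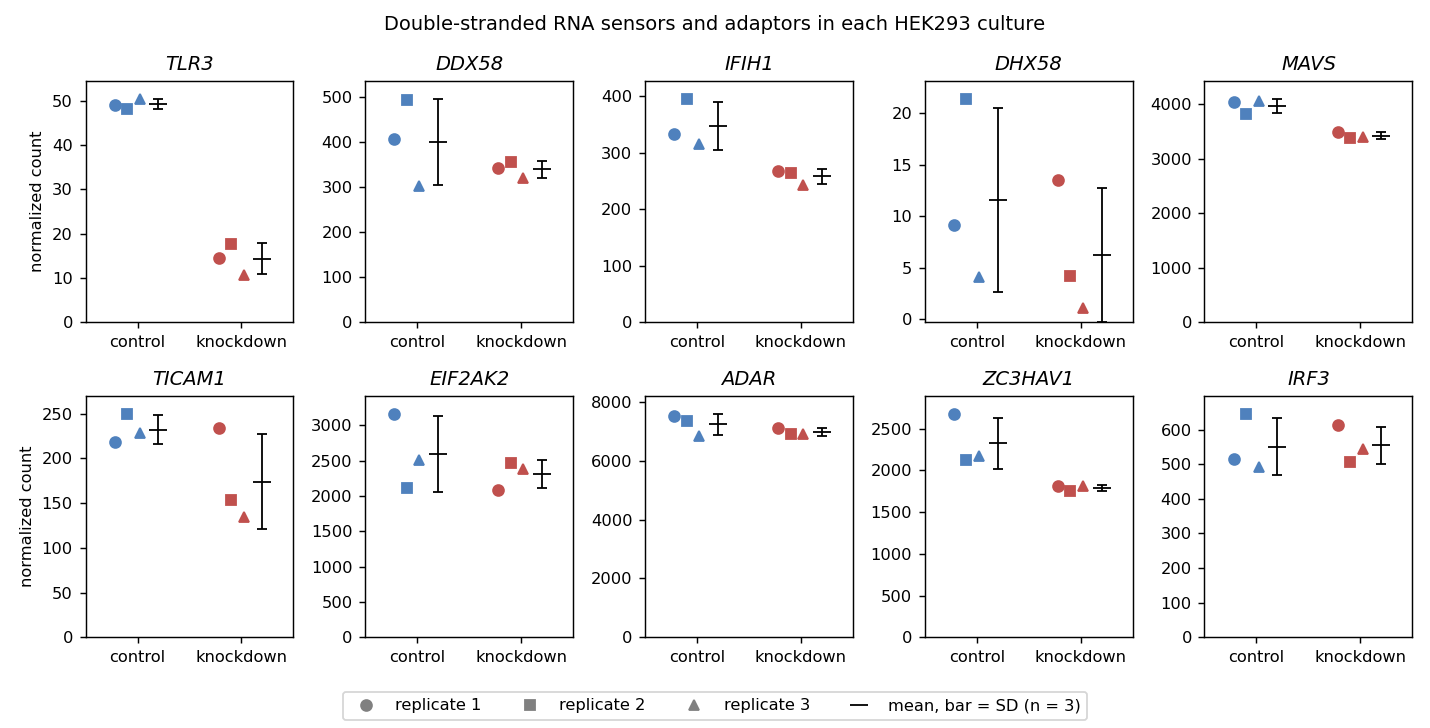
Normalized counts (vertical axis, linear) of the 10 genes in each culture, with the mean and SD (n = 3 cultures) beside the points and the replicate number as the marker shape. *TLR3* lies between 48.2 and 50.4 in the control group and between 10.7 and 17.7 in the knockdown group, while *ADAR* and *IRF3* overlap between the groups.

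Type I interferon acts on promoters through the interferon-stimulated response element, whose core is GAAA, 2 bases of any kind and GAAA, or TTTC, 2 bases and TTTC on the other strand. Windows from 250 bases before to 50 bases after the transcription start were taken from RefSeq (GRCh38.p14), and 8 of the 10 members were matched by symbol. The core was found in 3 of them (*TLR3*, *EIF2AK2* and *IFIH1*), in 25 of 31 interferon-stimulated genes of the list used below and in 3.57% of all 35116 windows, with overlapping matches allowed. Members and listed genes were counted once if any of their windows held the core, and *ADAR* has 3 windows. The 3.57% is a share of single windows, so it is not the same measure. These 3 sequences are shown because they mark the members that carry the element in this window, which the choice of genes did not use. Capitals mark the core, each run is written 5′ to 3′ on the strand of the gene, and a match is a description and not a binding site.
*TLR3*, chr4:186069132-186069161, plus strand: cattttttttcaagctttacTTTCACTTTC
*EIF2AK2*, chr2:37156977-37157006, minus strand: gggaaggcggagtccaagggGAAAACGAAA
*IFIH1*, chr2:162318696-162318725, minus strand: aaagtcctgagaagagaatcGAAACAGAAA
The first base of the core lies 4 bases before the RefSeq start in *TLR3*, 6 in *EIF2AK2* and 21 in *IFIH1*. The GENCODE spans given below begin further upstream for *TLR3* (186068911) and *EIF2AK2* (37157522), so these cores lie inside those spans. *IFIH1* holds 2 further matches on the other strand, 159 and 153 bases before its start, which overlap each other. Among these 3 genes, *TLR3* was called lower in the knockdown group, and *IFIH1* and *EIF2AK2* were not called. *ZC3HAV1*, the other member called lower, had no core in its window.

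*TLR3* (chromosome 4, 186068911 to 186088073, plus strand; hg38, GENCODE release 44) is the endosomal sensor of double-stranded RNA. It had 15, 17 and 10 reads in knockdown replicates 1, 2 and 3 and 48, 54 and 49 reads in control replicates 1, 2 and 3. The highest knockdown culture was far below the lowest control culture. In normalized counts the means were 14.3 ± 3.50 (SD, n = 3) and 49.2 ± 1.12, which gave a log2 fold change of -1.77 (standard error, SE, 0.29, 95% interval -2.39 to -1.15, adjusted p = 0.0032 from edgeR). That is 3.41-fold lower, and 9 of the 14877 genes tested had a more negative log2 fold change. Among those were the interferon-stimulated genes *OAS1* (-2.56), *IFI44L* (-2.19), *IFITM1* (-2.04) and *IFI6* (-1.98), none of which was called. The adjusted p from edgeR was 0.062 for *OAS1* and 0.092 for *IFI6*. The coefficient of variation among the controls was 2.29%, whereas counting noise alone gives 14.1% at this depth, so the 3 control values lay closer together than counting noise gives on average, and their spread understates the error of the control mean. Among the knockdown cultures it was 24.5%, near the 26.7% of counting noise. *TLR3* was called in all 14 alternative settings, with adjusted p between 0.00033 and 0.023, and its log2 fold change was between -1.95 and -1.61 when 1 culture was left out.

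*TICAM1* (chromosome 19, 4815932 to 4831712, minus strand) encodes the adaptor that TLR3 needs to signal. Its normalized counts were 234, 153 and 134 in knockdown replicates 1, 2 and 3 and 218, 250 and 228 in the controls. Knockdown replicate 1 lay among the controls, and the other knockdown cultures lay below all of them. The log2 fold change was -0.41 (SE 0.20, 95% interval -0.85 to 0.02), with adjusted p = 0.21 from edgeR. Without knockdown replicate 1 it was -0.69 (adjusted p = 0.054), without knockdown replicate 2 -0.33 (0.48) and without knockdown replicate 3 -0.26 (0.55). Here the spread was in the knockdown group, where the highest value was 1.75 times the lowest, against 1.14 times in the control group.

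The 3 RIG-I-like helicases, and *IRF3* as well, had control replicate 2 highest and control replicate 3 lowest among the controls, an order found in 19.8% of all genes tested. *DDX58* (chromosome 9, 32455302 to 32526208, minus strand), which encodes the sensor of RNA ends that carry phosphates, had 406, 494 and 304 normalized counts in control replicates 1, 2 and 3. The knockdown values of 343, 356 and 320 fell inside that range. Its log2 fold change of -0.24 (SE 0.16, adjusted p = 0.38 from edgeR) moved to -0.06 without control replicate 2 and to -0.40 without control replicate 3. *IFIH1* (chromosome 2, 162267074 to 162318684, minus strand), which encodes the sensor of long duplexes, had 333, 395 and 315 normalized counts in the controls and 268, 264 and 243 in the knockdown group. These groups did not overlap. The log2 fold change was -0.43 (SE 0.13, 95% interval -0.72 to -0.14), and the adjusted p, 0.064 from edgeR, became 0.042 without control replicate 3. Over the 14 alternative settings *IFIH1* had adjusted p between 0.042 and 0.24.

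*DHX58* (chromosome 17, 42101404 to 42112714, minus strand) encodes LGP2, a helicase without the signalling domain of the other two. It had 14, 4 and 1 reads in knockdown replicates 1, 2 and 3 and 9, 24 and 4 reads in control replicates 1, 2 and 3. The groups overlapped, and no difference was detectable at this depth. The gene did not pass the filter, and without a filter its log2 fold change was -0.87 with adjusted p = 0.53 from edgeR.

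*MAVS* (chromosome 20, 3846799 to 3876123, plus strand) relays the signal of RIG-I and MDA5 from the outer mitochondrial membrane. It had 4039, 3827 and 4055 normalized counts in control replicates 1, 2 and 3 and 3500, 3380 and 3400 in the knockdown replicates. The groups did not overlap, and the values were close together in each. The log2 fold change was -0.21 (SE 0.08, 95% interval -0.39 to -0.04), with adjusted p = 0.11 from edgeR. *MAVS* passed the threshold without control replicate 2 (0.033) and when GC content and exon length were corrected for (0.012), and in none of the other alternative settings.

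*IRF3* (chromosome 19, 49659569 to 49665875, minus strand), the transcription factor at the end of both branches, is regulated mainly by phosphorylation and not by its mRNA. It had 515, 646 and 493 normalized counts in the controls and 613, 508 and 544 in the knockdown group. The groups overlapped throughout. The log2 fold change was 0.01 (95% interval -0.28 to 0.30), and its sign changed when 1 culture was left out (-0.07 to 0.14). *BCL2L12* lies on the opposite strand and shares 734 exon bases with *IRF3*, which is 19.35% of the exons of *IRF3*. Its log2 fold change was -0.40 (adjusted p = 0.095 from edgeR), and the strand setting of the counting is not given in the sources used here, so reads from both genes in the shared part could not be told apart.

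The effectors that act on the RNA or on translation differed in their spread. *EIF2AK2* (chromosome 2, 37099210 to 37157522, minus strand) had 3163, 2108 and 2509 normalized counts in control replicates 1, 2 and 3, with control replicate 2 lowest, where it had been highest for the helicases. The knockdown values of 2085, 2461 and 2377 overlapped them. Its log2 fold change was -0.17 (SE 0.13, 95% interval -0.46 to 0.13), and it was -0.30 without control replicate 2 (adjusted p = 0.054 from edgeR) and -0.00 without control replicate 1. *ADAR* (chromosome 1, 154581695 to 154628013, minus strand) had 7538, 7357 and 6836 normalized counts in the controls and 7132, 6907 and 6903 in the knockdown group. Its log2 fold change was -0.05, and the 95% interval of -0.24 to 0.13 was the narrowest of the members whose interval included 0. The interferon-inducible and the constitutive isoform of *ADAR* are summed in these counts.

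*ZC3HAV1* (chromosome 7, 139043515 to 139132122, minus strand) had 2678, 2121 and 2177 normalized counts in control replicates 1, 2 and 3. The knockdown replicates were at 1813, 1753 and 1814, all below the controls and within 1.04 times of each other. The log2 fold change was -0.37 (SE 0.10, 95% interval -0.60 to -0.15, adjusted p = 0.040 from edgeR). The call was lost without knockdown replicate 1 (0.12), 2 (0.17) or 3 (0.14) and without control replicate 1 (0.12), the highest control, where the log2 fold change was -0.26. Its paralogue *ZC3HAV1L* had 2 reads in a single knockdown culture and none in the others.

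**Figure D2:**
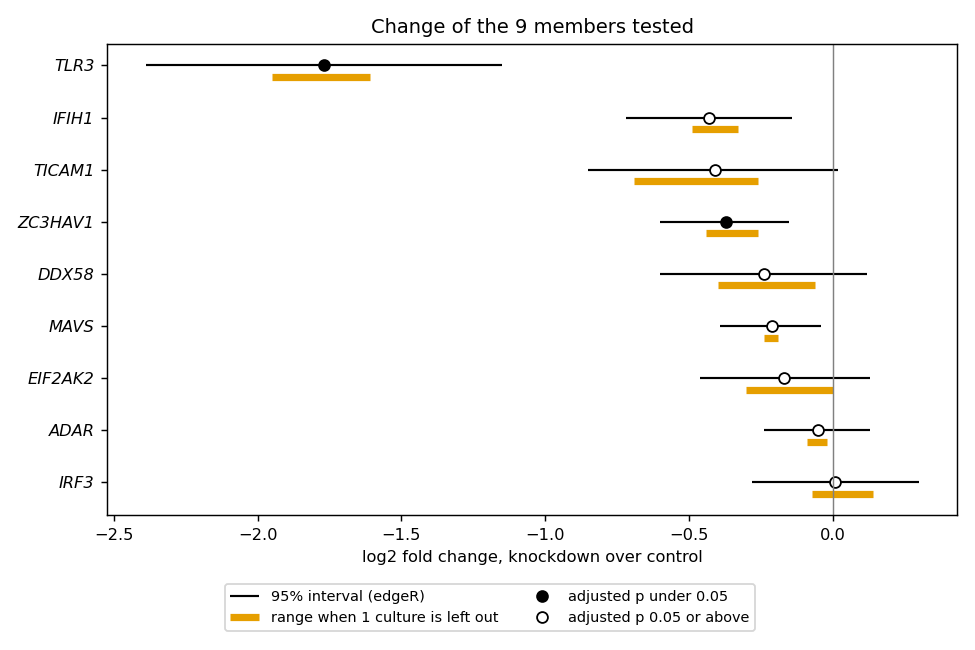
Log2 fold change (horizontal axis, knockdown over control) of the 9 members tested, with the 95% interval from edgeR in black and, in orange, the range over the 6 fits that leave out 1 culture each. *TLR3* is at -1.77, the other 8 members are between -0.43 and 0.01, and filled points mark an adjusted p under 0.05.

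The spread among the 3 control cultures was measured as the highest over the lowest normalized count. Its median was 1.26 over the 9 members tested and 1.29 over all genes tested. *DDX58* (1.63) and *EIF2AK2* (1.5) had the widest control spread of the 9, above 81.2% and 74.1% of the genes tested. *TLR3* (1.05) and *MAVS* (1.06) had the narrowest, above 2.42% and 3.81%. In the knockdown group the median was 1.11 for the members and 1.16 for all genes. There *TICAM1* (1.75) and *TLR3* (1.65) were the widest. Control replicate 2 held the highest control value in 5 of the 10 members (38.0% of all genes tested), control replicate 1 in 3 and control replicate 3 in 2, so the members did not share a single order of the controls.

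**Figure D3:**
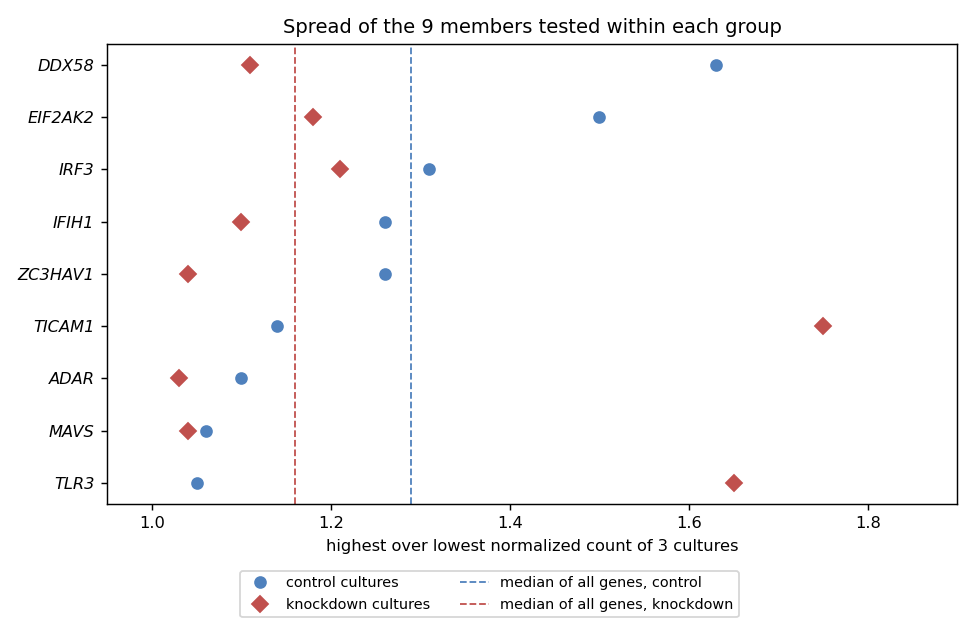
Highest over lowest normalized count of the 3 cultures of each group (horizontal axis, linear) for the 9 members tested, with dashed lines at the medians of all 14877 genes, 1.29 for the control and 1.16 for the knockdown group. *DDX58* and *EIF2AK2* spread widely among the controls, and *TLR3* and *TICAM1* among the knockdown cultures.

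To compare genes, normalized counts were divided by the length of the exons of each gene, merged over its transcripts in GENCODE release 44. In the control group *ADAR* was the most abundant member, at 592 ± 29.8 normalized counts per kilobase (SD, n = 3). *MAVS* (338), *ZC3HAV1* (275), *EIF2AK2* (235), *IRF3* (145), *TICAM1* (86.5), *IFIH1* (66.5), *DDX58* (38.8), *TLR3* (6.56) and *DHX58* (3.03) followed. The control ranges of *ZC3HAV1* and *EIF2AK2* overlapped, and those of the other neighbours did not. The order was the same in the knockdown group, where the ranges overlapped for *ZC3HAV1* and *EIF2AK2*, for *TICAM1* and *IFIH1*, and for *TLR3* and *DHX58*. *TLR3* went from 6.56 ± 0.150 to 1.91 ± 0.467 normalized counts per kilobase, so the endosomal sensor was the second lowest member in both groups. These levels depend on the annotation. In release 44, 43.22% of the exon bases of *DDX58* also belong to an overlapping gene on the same strand that the count table does not list.

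The wider pathway was described with 10 lists of neighbouring genes, 188 distinct genes in all, of which 158 were tested. Of these, 12 were called lower (7.59%) and 4 higher (2.53%), beside 4.64% and 5.40% of all genes tested, and 142 were not called. The interferon-stimulated genes, 32 of them tested, held 6 of the 12 lower calls, so the share of lower calls was not even over the lists. The median log2 fold change was -0.11. The named genes below were called by edgeR's quasi-likelihood test unless stated.

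Among the 21 kinases, adaptors and ubiquitin ligases downstream of MAVS and TICAM1, 1 was lower and 1 higher, with a median of 0.00. The higher gene was *TRAF3*, the ubiquitin ligase that links both adaptors to the kinase TBK1. *TRAF3* rose from 615, 601 and 582 normalized counts in control replicates 1, 2 and 3 to 1234, 1243 and 1232 in the knockdown replicates, with neither group spreading beyond a few percent of its mean. Its log2 fold change was 1.04 (SE 0.09, adjusted p = 9.8e-05), and it was between 1.03 and 1.06 when 1 culture was left out. The lower gene was *MAP3K7*, the kinase TAK1 of the NF-kappaB branch (log2 fold change -0.39, adjusted p = 0.019). Its call was lost without any 1 of the knockdown replicates and without control replicate 1 (adjusted p up to 0.10). *TBK1* itself was not called, with values of 1097 ± 85.2 and 957 ± 58.6 normalized counts in the control and knockdown groups (log2 fold change -0.20, adjusted p = 0.23).

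Among 15 regulators of the RIG-I-like helicases, 2 were lower, 1 was higher and 12 were not called. *TRIM25*, a ubiquitin ligase that acts on RIG-I and is also a cofactor of ZAP, was at 2019 ± 5.63 normalized counts (SD, n = 3) in the knockdown and 2682 ± 367 in the control group (log2 fold change -0.41, adjusted p = 0.031). The mitofusins, which fuse the outer mitochondrial membranes that carry MAVS, moved in opposite directions. The knockdown group was lower in *MFN2* (log2 fold change -0.45, adjusted p = 0.0079) and higher in *MFN1* (0.62, adjusted p = 0.014). The calls of *TRIM25* and *MFN1* were lost without any 1 of the knockdown replicates and without control replicate 1, with adjusted p up to 0.12 and 0.078, and that of *MFN2* without knockdown replicate 2 (0.068). Among the partners of TLR3 and TICAM1, *WDFY1*, which helps bring TICAM1 to TLR3, was lower (log2 fold change -0.43, adjusted p = 0.022), and the other 6 tested were not called. *WDFY1* lost its call in 5 of the 6 fits with 1 culture left out, all but that without control replicate 2 (adjusted p up to 0.10).

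None of the 18 genes of the list for PKR partners and the eIF2 pathway was called. The PKR activator *PRKRA* (PACT) had the most negative log2 fold change of that list, -0.30, with adjusted p = 0.078. Among 13 other double-stranded RNA-binding proteins tested, *DROSHA*, the nuclear RNase that releases microRNA precursors, was higher (log2 fold change 0.67, adjusted p = 0.0031) and 12 were not called. *ADARB1*, which encodes the second adenosine deaminase, was at 750 ± 63.5 normalized counts in the control and 933 ± 35.1 in the knockdown group and was not called (log2 fold change 0.31, adjusted p = 0.074). Among 21 ZAP cofactors and relatives tested, *TRIM25* was lower, and *KHNYN*, which encodes an endonuclease that works with ZAP, was higher. *KHNYN* rose from 650 ± 23.2 to 991 ± 52.2 normalized counts (log2 fold change 0.61, adjusted p = 0.0031). It shares 25.5% of its exon bases with *SDR39U1* on the opposite strand. *DROSHA* and *KHNYN* were called in all 14 alternative settings.

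Interferons themselves were at or near the limit of detection. *IFNB1* had 4 reads in control replicate 2, 1 read in knockdown replicate 2 and none elsewhere, and 7 of the 8 untested genes of the list for interferons and their receptors were interferon genes. Among 11 other interferon regulatory factors and their partners, *IRF2BP2*, a corepressor, was lower (log2 fold change -0.40, adjusted p = 0.036) and 10 were not called. *IRF2BP2* lost its call without any 1 of the knockdown replicates and without control replicate 1, with adjusted p up to 0.15. *IRF7*, the interferon-inducible factor, had 250, 500 and 166 normalized counts in control replicates 1, 2 and 3 and between 210 and 225 in the knockdown group. It was not called, and its log2 fold change of -0.49 became 0.07 without control replicate 2.

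Of 39 interferon-stimulated genes, 32 were tested, 6 of which were lower, none higher and 26 not called, beside 4.64% lower and 5.40% higher of all genes tested. Their median log2 fold change was -0.59, and 29 of the 32 values were negative. The controls differed widely in this list. Its summed normalized counts were 12673, 16652 and 11451 in control replicates 1, 2 and 3 and between 9932 and 10755 in the knockdown group. In 26 of the 32 genes control replicate 2 was the highest control, against 38.0% of all genes tested. *ISG15*, a ubiquitin-like modifier, had 169, 415 and 84.4 normalized counts in control replicates 1, 2 and 3 and between 82.4 and 97.7 in the knockdown group. Control replicate 3 was thus at the level of the knockdown cultures, and *ISG15* was not called (log2 fold change -1.29, adjusted p = 0.15). *IFIT1* had the same order, at 401, 677 and 270 against between 244 and 272, and was not called (adjusted p = 0.11). *IFIT3*, *OAS3*, *IFIT5* and *SAMD9* were called lower without overlap between the groups, with log2 fold changes of -1.43, -0.71, -0.51 and -0.70. In 14 of the 32 genes all knockdown cultures lay below all control cultures, against 15.8% of all genes tested. *OAS1* and *IFI6*, which were not called, were among them.

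The number of interferon-stimulated genes called lower moved with the cultures and with the method. With all cultures it was 10 by the DESeq2 Wald test, 10 with the replicate number as a block and 3 by limma-voom, beside 6 by edgeR without a block. It was 20 without control replicate 3, 9 without control replicate 2, 3 without control replicate 1, 2 without knockdown replicate 1 and 1 without knockdown replicate 2 or 3. Calls over all genes moved as well, from 690 lower with all cultures. They were 994, 1238 and 294 without control replicates 3, 2 and 1, and 252, 247 and 233 without knockdown replicates 1, 2 and 3. The median log2 fold change of the interferon-stimulated genes was between -0.76 and -0.35 in these fits. Of the 4 named genes, *SAMD9* was called in all 14 alternative settings, *OAS3* in 12, *IFIT5* in 11 and *IFIT3* in 8, the last with adjusted p up to 0.13. By culture, *DDX58*, *IFIH1*, *DHX58* and *IRF3* had the order of controls seen in *ISG15*, *IFIT1* and *IFIT3*, with control replicate 2 highest and control replicate 3 lowest, and the other 6 members did not. The part of the interferon-stimulated genes in the values of the sensors was not tested.

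**Figure D4:**
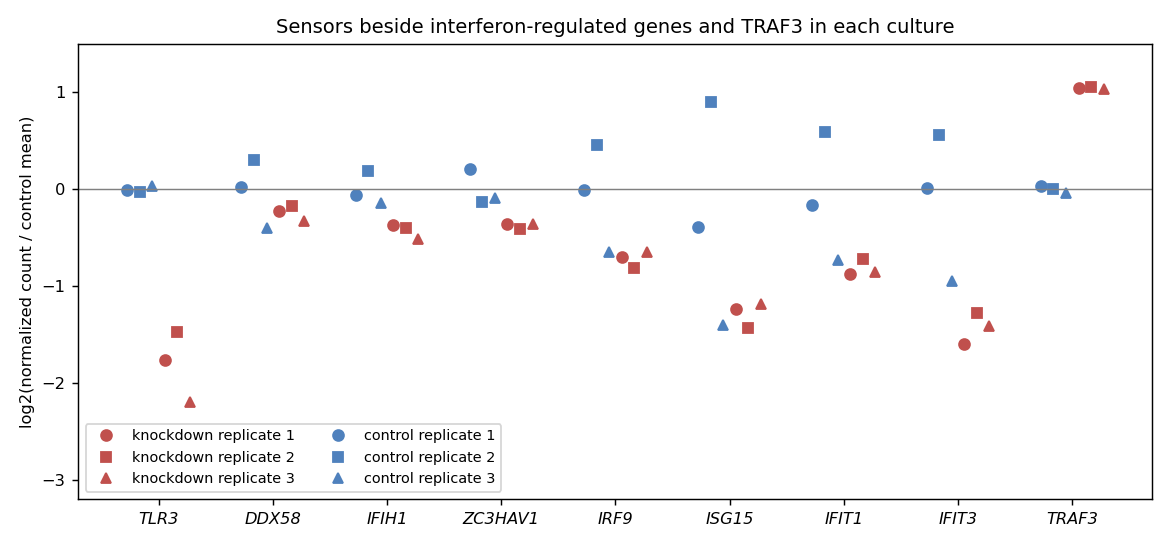
Log2 of the normalized count over the control mean (vertical axis) in each culture, for 4 of the sensors beside 4 interferon-regulated genes and *TRAF3*, chosen after their values were seen. The control points of *TLR3* and *TRAF3* lie together and away from the knockdown points, while those of *ISG15*, *IFIT1* and *IRF9* spread, with control replicate 3 at the level of the knockdown cultures.

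Other innate sensors gave no call among 12 tested, and 10 were below the filter. Their median log2 fold change was -0.24, that of the members, with 9 of the 12 values negative. *TLR2*, *TLR8* and *ZBP1* had no read in any culture, and *AIM2* and *TLR7* had at most 2 and 1. *TLR3* itself, at 10 to 54 reads per culture, was thus measured at a low level, and its fold change rests on 42 knockdown and 151 control reads.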

How the data were processed

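The authors deposited reads per gene as raw counts, whole numbers without normalization, for 6 HEK293 libraries from a stranded mRNA protocol. Per the submitters' processing notes, reads were handled with FastQC 0.11.9, Trim Galore 0.6.6, STAR 2.7.9a and featureCounts 2.0.1 on hg38. The paper's methods name SortMeRNA for ribosomal reads and other versions of STAR and featureCounts. The gene annotation, the strand setting and the handling of multi-mapping reads are not given in the sources used here. Rows were taken by symbol. Of the 26485 names, 22923 matched GENCODE release 44 by symbol and 1308 through an older symbol.

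Counts were filtered with filterByExpr, scaled with TMM and fitted in edgeR 4.0.16 (R 4.3.3) by its quasi-likelihood F test, robust and without a block, with Benjamini-Hochberg adjustment over all 14877 genes and a threshold of 0.05. Standard errors are the log2 fold change over the square root of F. With 3 cultures against 3, an exact permutation test cannot give a two-sided p under 0.10. The biological coefficient of variation was 12.4%. Each fit was tested on simulated data.

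The members and lists were chosen with earlier results of these data known. The genes named were the 10 members, 10 genes fixed by name (1 of them is not reported here), at most 4 called genes per list by smallest p and genes that overlap a member. *IRF9*, *OAS1*, *IFI6*, *IFI44L*, *IFITM1*, *AIM2* and the Toll-like receptors were named after their values were seen. Alternatives were other scalings (DESeq2 size factors, library sizes alone), other filters, the DESeq2 1.42.0 Wald test, limma-voom (limma 3.58.1), a block on the replicate number, leaving out single cultures and, added after the data were seen, a loess correction (span 0.3) for GC content and exon length. Figures were drawn with matplotlib 3.10.9.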

Additional observations from a re-analysis of the deposited data

How the results depend on the processing

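Over all genes, 690 were called lower and 804 higher. With 1 culture left out, the counts were between 233 and 1238 lower and between 289 and 1274 higher, the highest without control replicate 2 and the lowest without knockdown replicate 3 (lower) or 2 (higher). After correction for GC content and exon length they were 1389 and 1277. Of the members, 2 were called lower, between 1 and 3 with 1 culture left out, and 0 were called higher in any setting. In the pathway lists, 12 genes were called lower and 4 higher. These were between 1 and 31 lower and between 3 and 10 higher with 1 culture left out, 20 lower by the DESeq2 Wald test, and 24 lower and 9 higher after the correction for GC content and exon length. The direction of *IRF3* (between -0.07 and 0.14) and of *IRF7* (between -0.78 and 0.07) changed when 1 culture was left out. The direction of the other named genes held in every setting that tested them, except that *IFI44L* and *IFITM1* were not followed over the settings. The median control spread of the members was 1.25 or 1.26 under other scalings. With 1 control left out it was between 1.06 and 1.19. A highest over lowest ratio cannot rise when a culture is removed, so that fall carries no information on the processing.

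The replicate numbers of the sample titles gave no sign of pairing the cultures, although 3 cultures per group cannot exclude it. Deviations from the group means of cultures with the same title number correlated at -0.199, -0.112 and -0.044 for numbers 1, 2 and 3, across genes. Knockdown replicate 1 and control replicate 3, whose columns are both numbered 1, correlated at -0.012. With the replicate number as a block, 1 member was called lower, since *ZC3HAV1* had an adjusted p of 0.063 from edgeR, and 619 genes were lower and 714 higher over all. Low counts limit *TLR3*, *DHX58* and the interferon genes.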
